A study of Eptesicus fuscus and Canis lupus familiaris and Equus caballus with 4 samples.

Results

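The hairpin candidates described here lie in the genome region that holds the imprinted miRNA cluster of the DLK1-DIO3 type in the big brown bat (Eptesicus fuscus), the horse and the dog. They were chosen by position. Bat candidates were taken from contigs ALEH01112078, ALEH01112079 and ALEH01112080. Horse candidates had to start on chromosome 24 between 42500000 and 43500000, and dog candidates on chromosome 8 between 68500000 and 70000000. This gave 24 of 762 bat candidates, 8 of 439 horse candidates and 3 of 252 dog candidates, or 35 of 1453 in all. Each candidate is a predicted stem-loop with small RNA reads on an arm, called 5p or 3p for the first or second arm of the stem. From each species 1 library was analysed, made from the small RNA fraction of snap-frozen adult testis, with no treatment named. The tissue was taken whole, so fewer cells of a type and less RNA per cell cannot be told apart, and testis cell type markers were not tested. The series also has a library of another bat, which was not analysed here.

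Imprinted genes are read from the copy of 1 parent. In placental mammals the region between DLK1 and DIO3 holds protein-coding genes read from the paternal copy and, on the maternal copy, long non-coding transcripts with small nucleolar RNAs and a long row of miRNA genes. These miRNAs are best known from placenta, embryo and brain. A miRNA guides silencing of messenger RNAs mainly through its seed, bases 2 to 8 from its 5′ end. Many miRNAs of the row resemble each other, as do tandem copies of an older gene.

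The sequences that carry the results are shown first, as the files write them with T for U, 5′ to 3′, with the seed in capitals. The first set is the mature sequence listed in all 3 species, the second the pair of arms listed in bat and horse, and the third the most-read hairpins of the region without a match in another species.
Bat MIR3958 3p: cAGATATTgcacggttgatctctt
Horse Candidate_138 3p: cAGATATTgcacggttgatctctt
Dog Candidate_245 3p: cAGATATTgcacggttgatctct
Bat MIR154 5p: aGAGGTCTtccatgatgcattcact
Horse Candidate_146 5p: aGAGGTCTtccatgatgcattcg
Bat MIR154 3p: aATCATACatggtagacctgttt
Horse Candidate_147 3p: aATCATACatggttgaccttttt
Bat MIR379 5p: tGGTAGACtatggaacgtaggcttt
Bat MIR411 5p: aCGGTGGAccgtagagcatgcgtg
Bat MIR381 3p: aTATACAAgggcaagctctctgt
Horse Candidate_135 3p: tGTATGTCaactgatccacagtc
Horse Candidate_143 3p: aACGAACCtggttaacctctttt
Dog Candidate_244 3p: tTAATATCggacaaccattgtt

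The 24 bat candidates formed 17 loci once hairpins overlapping on the same strand were merged, and each locus took its name from a bat RefSeq miRNA gene. The gene table belongs to another bat assembly (DD_ASM_mEF_20220401), so names were given by spacing and not by coordinates. The 9 loci of contig ALEH01112080.1 had the spacing of 9 miRNA genes to within 20 bases, in a single placement among the 400 miRNA genes of the table, and the best placement on other genes took in 3 loci. The 6 loci of ALEH01112078.1 had the spacing of 6 genes to within 27 bases, again in a single placement. The 2 loci of ALEH01112079.1 lay 0.5 bases off the spacing of MIR1185 and MIR381, but 6 placements took in both of them within 50 bases, so these 2 names rest on less. With a tolerance of 10 bases 14 of the 17 loci were placed, and MIR3958, MIR409 and MIR412 were not. In the table the 17 genes follow each other without another miRNA gene between them, from MIR379 to MIR412, and all 17 had a bat locus. The sources used here do not say whether the table's entries rest on the same reads.

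All 24 bat candidates lay on the minus strand of their contigs, and all 3 dog candidates on the plus strand. In the horse 7 of 8 lay on the plus strand, within 30905 bases from 42899649 to 42930553. The exception was Candidate_144, at 42738889 to 42739025 on the minus strand, 169146 bases from the most-read horse hairpin, with 3 reads. The dog loci spanned 9847 bases, from 69267134 to 69276980. The bat loci covered 14541 bases of ALEH01112080.1, 1765 of ALEH01112079.1 and 12241 of ALEH01112078.1.

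The reads of the region were few in each list. Bat members had 587 of 89091 listed reads, or 0.659% (exact Clopper-Pearson 95% interval 0.607 to 0.714). Horse members had 894 of 61054, or 1.46% (1.37 to 1.56), and dog members 42 of 63429, or 0.0662% (0.0477 to 0.0895). The sum of a list's reads is not the depth of its library, so these shares do not order the species. The deposited fraction of all reads analysed, to 3 decimals, was 0.003 at bat MIR379 with 296 reads. At horse Candidate_138, with 543 reads, it was only 0.001. A bat member had a median of 7.5 reads, a horse member 22.5 and a dog member 9, beside a median of 3 reads per candidate in every list. Intervals here and below cover counting error only, and the species were not tested against each other, since a single library of each was analysed. In each species 1 hairpin gave most of the sum. Without it the sums were 291, 351 and 11 reads, and the shares 0.328%, 0.580% and 0.0174%, in the same order of species.

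Among the bat loci the reads ran from 2 to 296, with a median of 10. MIR379 gives the row its usual name and is the first in the table of the 17 genes with a bat locus here. Its locus had 296 reads from 49 distinct read sequences at ALEH01112080.1, 14615 to 14709, all on the 5p arm. This was 50.4% of the bat reads of the region and rank 61 of the 762 listed candidates. MIR3958 followed with 63 reads on the 3p arm at 2897 to 3039, rank 126. MIR154 came next with 26 reads on the 5p arm and 24 on the 3p arm, at 8965 to 9109 of ALEH01112078.1. MIR411, at 11515 to 11657 of ALEH01112080.1, had 43 reads on the 5p arm and 2 on the 3p arm. The bat values thus fell off steeply after the first locus.

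The other bat loci had at most 26 reads. MIR381 had 26 reads on the 3p arm at 5422 to 5542 of ALEH01112079.1. MIR376 had 12 reads on the 5p arm and 14 on the 3p arm at 169 to 265 of ALEH01112080.1. The miR-376 family is known for adenosine-to-inosine editing of its transcripts in other tissues, which these counts do not address. MIR382 had 14 reads on the 5p arm and 7 on the 3p arm, and MIR299 had 1 and 13. MIR1193 had 10 reads, MIR1185 had 8, MIR409 had 7 and MIR495 had 5. At the bottom, MIR494 and MIR487 had 2 reads on each arm, MIR323 and MIR485 had 3 reads each, and MIR412 had 2. Neighbours in this lower part of the order differ by a few reads of 1 library and were not ranked.

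**Figure D1:**
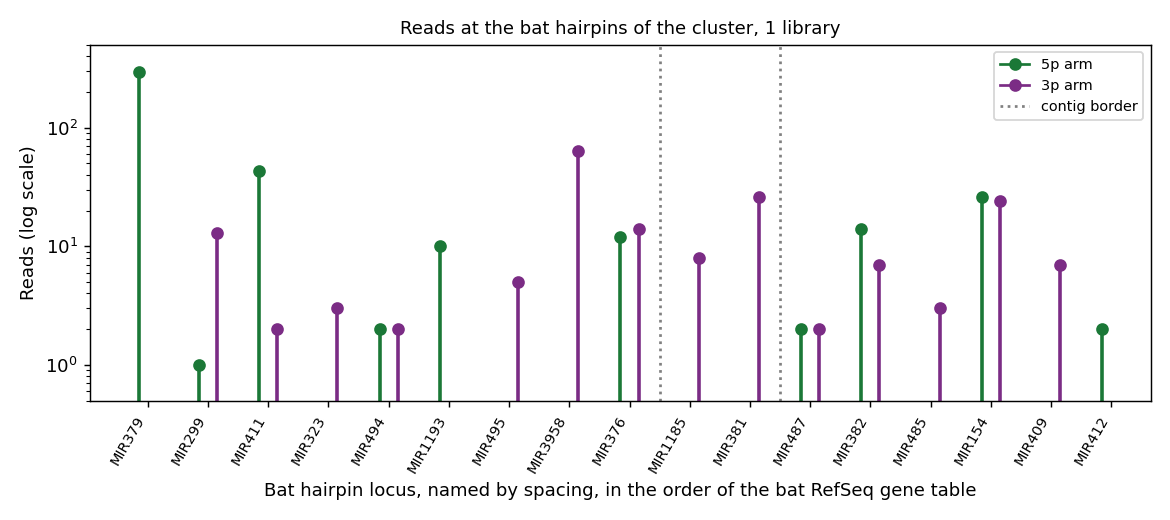
Reads (log axis) at the 17 bat loci, on the 5p arm (green) and the 3p arm (purple), in the order of the bat RefSeq gene table; dotted lines mark contig borders. MIR379 stands at 296 reads and MIR3958 at 63, while 7 loci have reads on both arms.

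The horse had fewer loci in the region than the bat, with more reads each as raw counts that are not scaled to depth. The deposited fraction of all reads analysed, to 3 decimals, was 0.001 at horse Candidate_138 and at bat MIR3958. At bat MIR379 this fraction was 0.003. The 5 horse loci had 3 to 547 reads, with a median of 140. Candidate_138, the counterpart of bat MIR3958 at 42908032 to 42908174, had 543 reads from 12 distinct read sequences on the 3p arm and rank 16 of 439, and Candidate_139 on its 5p arm had 4 reads. Candidate_135, at 42921540 to 42921650, had 162 reads on the 3p arm, rank 38. Candidate_143, at 42899649 to 42899789, had 138 reads on the 3p arm, rank 41, and Candidate_142 on the same hairpin's 5p arm had 2. Candidate_146, called the counterpart of bat MIR154 from its mature match alone, at 42930413 to 42930553, had 41 reads on the 5p arm, and Candidate_147 on its 3p arm had 1.

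The 3 dog candidates had 31, 9 and 2 reads. Candidate_244, at 69276842 to 69276980 on CanFam3.1, had 31 reads from 3 distinct read sequences, rank 61 of 252. Candidate_245, the counterpart of bat MIR3958 at 69267134 to 69267274, had 9 reads, rank 99. Candidate_240, the counterpart of bat MIR1185 at 69273204 to 69273332, had 2 reads of a single sequence. All 3 mature sequences were on the 3p arm.

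**Figure D2:**
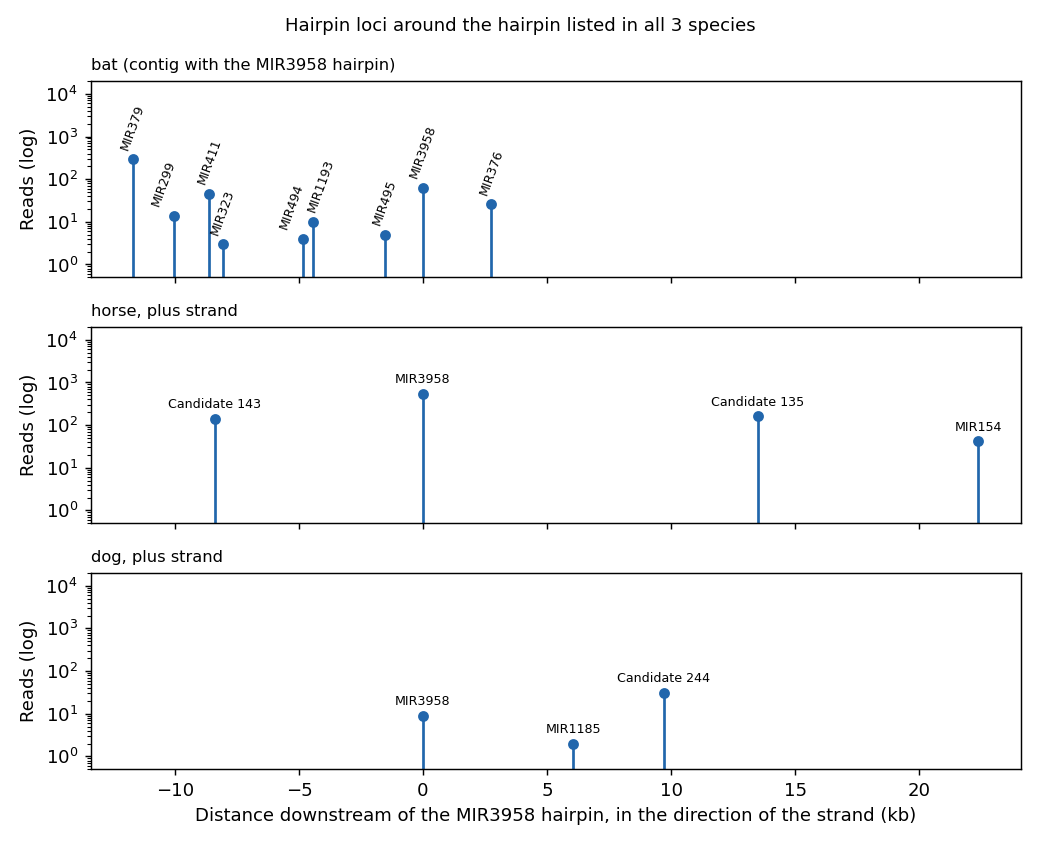
Reads per locus (log axis) against distance downstream of the MIR3958 hairpin in kb, along the strand of the hairpins, for the bat contig with that hairpin and for the plus strand of horse and dog. The same hairpin has 63 bat reads, 547 horse reads and 9 dog reads, and the horse locus 169146 bases away on the minus strand is left out. These are raw counts, not scaled to depth. On this hairpin's 3p arm the deposited fraction, to 3 decimals, is 0.001 in bat and horse and 0 in the dog.

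Distances from the shared hairpin place the loci along the row. In the bat, MIR495 lay 1528 bases upstream of MIR3958, MIR1193 4428, MIR494 4829, MIR323 8074, MIR411 8618, MIR299 10015 and MIR379 11694, and MIR376 lay 2752 bases downstream. In the horse Candidate_143 lay 8384 bases upstream, Candidate_135 lay 13492 bases downstream and the MIR154 counterpart 22380. In the dog the MIR1185 counterpart lay 6064 bases downstream and Candidate_244 9707. Bat MIR154 and MIR1185 lie on other contigs than MIR3958, so their distances to it were not measured here.

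Few mature sequences of the region were listed in more than 1 species. Sequences were matched when they differed at no more than 2 of 18 bases, with starts shifted by no more than 2 bases. Of the 24 bat sequences, 4 had a match in the horse list (16.7%, 4.74 to 37.4), against 2.32% of all distinct bat sequences. Of the 8 horse sequences, 4 had a match in the bat list (50.0%, 15.7 to 84.3), against 3.9%. In the dog, 1 of 3 sequences had a match in the bat list and 1 of 3 in the horse list, against 9.18% and 5.31% of all distinct dog sequences. From the bat 1 of 24 matched the dog list, against 3.4%, and from the horse 1 of 8, against 4.16%. One of the 4 pairs of bat and horse joined different genes, bat MIR494 and the horse MIR3958 counterpart, without a shared seed, and the other 3 joined counterparts with a shared seed. Every one of these matches was to a candidate of the same region in the other species. The region was chosen with earlier results of these data known, so the counts are a description. For bat and horse the members' intervals, with all 4 pairs counted, lay above the lists' shares, and for the pairs with the dog they took them in. The intervals treat sequences as independent, although both arms of the MIR154 hairpin are among the pairs, so no conclusion is drawn from them.

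The MIR3958 hairpin was the one listed in all 3 species. Its mature sequence was identical over 24 bases in bat and horse and over the 23 bases listed in the dog. The hairpins are shown with the mature sequence in capitals.
Bat Candidate_381: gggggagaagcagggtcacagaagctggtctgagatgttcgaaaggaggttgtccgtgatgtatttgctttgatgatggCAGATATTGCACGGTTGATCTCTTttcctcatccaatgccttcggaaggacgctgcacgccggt
Horse Candidate_138: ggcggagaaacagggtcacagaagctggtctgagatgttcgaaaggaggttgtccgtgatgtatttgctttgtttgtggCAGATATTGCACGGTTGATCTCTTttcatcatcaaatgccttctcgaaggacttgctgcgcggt
Dog Candidate_245: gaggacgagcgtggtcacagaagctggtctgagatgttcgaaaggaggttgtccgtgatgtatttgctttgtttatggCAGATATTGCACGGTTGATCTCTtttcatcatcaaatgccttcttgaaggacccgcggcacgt

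Differences between the 3 hairpins lay outside the stem strands that the mature sequence and its partner form. The 24 bases of the mature strand and the 24 bases opposite to it in the predicted fold were identical in all 3 pairs of species. In the loop, bat and horse were identical at 9 of 12 bases, bat and dog at 10 of 12, and horse and dog at 11 of 12. In the flanks the counts were 74 of 80, 68 of 78 and 69 of 81. Over the whole aligned hairpin, with gaps not counted, identity was 93.6% for bat and horse, 91.3% for bat and dog and 90.8% for horse and dog.

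The MIR154 hairpin differed more between bat and horse. Its 5p mature sequence was identical at 24 of 25 aligned bases, the opposite arm at 21 of 26, the loop at 4 of 8 and the flanks at 54 of 82, which gave 73.05% over the hairpin. The bat hairpin closest to this horse hairpin as a whole was another one, Candidate_375 of MIR494, at 82 of 110 aligned bases (74.5%), so the name rests on the mature sequences. Both arms were listed in both species and shared their seeds, GAGGTCT on the 5p arm and ATCATAC on the 3p arm. The dog MIR1185 counterpart was identical to the bat hairpin at 117 of 126 aligned bases (92.9%), with the mature strand at 21 of 22, the opposite arm at 21 of 23, the loop at 15 of 16 and the flanks at 60 of 65. A gap within this mature strand moved its listed sequences out of register, so the pair is not among the matches counted by mature sequence.
Bat Candidate_576 MIR1185 3p: aATGTACAggggagactcttat
Dog Candidate_240 3p: aTATACAGggggagactcttat

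**Figure D3:**
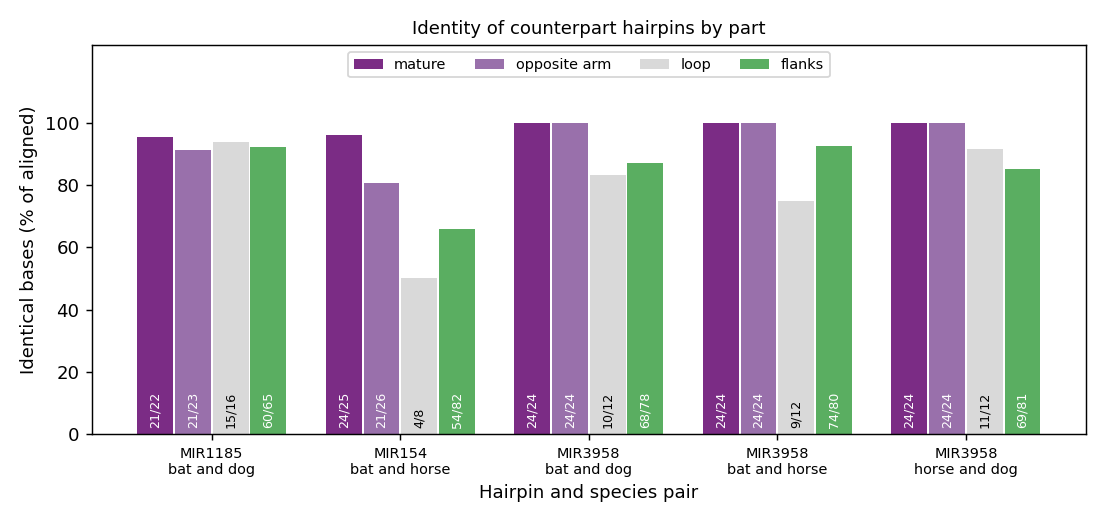
Percent of identical bases in the mature strand, the opposite arm, the loop and the flanks of each counterpart hairpin, with identical over aligned bases written in the bars, for 5 pairs. The MIR3958 mature strand and opposite arm stand at 24 of 24 in all 3 pairs, and the MIR154 loop stands lowest, at 4 of 8.

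Reads lay on both arms at 7 of 17 bat loci and 3 of 5 horse loci, and at none of the 3 dog loci. The same share over all loci of the lists is not given here, so these counts describe the region and do not set it apart. The strands of a pair of arms normally leave the stem with short 3′ ends sticking out. In the predicted folds of these 10 hairpins the 20 strand ends overhung by a median of 2 bases, with 14 ends at 1 to 3 bases, 4 at 4 bases and 2 at 0 or less. The arm with more reads differed by hairpin. At MIR411 the 3p arm had 4.44% of the reads (0.543 to 15.2) and at MIR299 it had 92.9% (66.1 to 99.8), while at MIR376 it had 53.8% (33.4 to 73.4) and at MIR382 33.3% (14.6 to 57.0). In the horse the 3p arm had 99.3% of the reads at the MIR3958 counterpart (98.1 to 99.8) and 98.6% at the hairpin of Candidate_143 (94.9 to 99.8).

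The MIR154 hairpin was the one with both arms listed in bat and horse. The 3p arm held 24 of 50 reads in the bat (48.0%, 33.7 to 62.6) and 1 of 42 in the horse (2.38%, 0.0603 to 12.6). These intervals do not overlap, but they compare 2 libraries and not the species.

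The members differed from each other in seed as well as in reads. The 35 members held 30 distinct seeds, and 3 seeds were held by more than 1 member. One was the seed of MIR3958 in the 3 species, AGATATT, and another GAGGTCT on the 5p arm of MIR154 in bat and horse. The last, ATCATAC, was on the 3p arms of bat MIR154, of its horse counterpart and of bat MIR487, a different gene of the row. The bat MIR487 sequence shares this seed with MIR154 and differs after it.
Bat MIR487 3p: aATCATACagggacatccagtt
Bat MIR154 3p: aATCATACatggtagacctgttt

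A further resemblance joined different genes across species. The 5p sequence of bat MIR494, with 2 reads, matched the 5p sequence of the horse MIR3958 counterpart, with 4 reads, at 17 of 18 bases once shifted by 2, and over 22 bases they differed at 3. Their seeds differ because of the shift. The hairpins of the 17 bat loci were 50.0% to 78.0% identical to each other in pairs, with a median of 62.1% over 136 pairs, and the closest pair was MIR382 and MIR323. No pair reached 80%. Gaps were not counted, and the same values for other hairpins of the list are not given here. The percentages therefore do not measure a resemblance particular to the row. None of the 35 members had a mature match elsewhere in its own list, whereas 42.7% of all bat, 22.3% of all horse and 31.3% of all dog candidates did.
Bat MIR494 5p: aGAGGTTGtccgtgatgtgttctc
Horse Candidate_139 5p: aGGTTGTCcgtgatgtatttgct

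Short stretches outside the mature sequences were also shared along the row. Each locus was represented by the hairpin of its most-read candidate, and all stretches of 6 bases were counted. The most common were held by 8 of the 17 bat loci. AGTATC lay on the 3p side of all 8, which were MIR379, MIR323, MIR494, MIR376, MIR381, MIR487, MIR485 and MIR154. GTATCA, which overlaps it, was likewise in 8 of 17, against 2.99% of the bat list. GGTACT was in 8 of 17, none of them on the 3p side, against 4.93%. GTACTT, which overlaps that one, was in 8 of 17, against 2.39%. In the horse GGTACT was in none of the 5 loci, against 6.39% of the horse list. With 5 loci this absence cannot be read as a difference from the bat. The same holds for GTACTT, which was in none of the 5, against 2.05%. The horse had GTATCA in 2 of 5 loci, against 2.56%. In the dog GGTACT was in 1 of 3 loci, against 1.72% of the dog list. The dog also had GTACTT in 1 of 3, against 4.31%. There GTATCA was in 1 of 3 as well, against 0.431%. In all, 11 of 669 bat loci in the list held AGTATC on the hairpin strand (1.64%), so 8 of these 11 lay in the region. On either strand 18 of 669 held it, against the same 8 in the region. In the horse 2 of 5 loci of the region held it, against 1.79% of the list, and in the dog 1 of 3, against 1.29%. The stretches were chosen for being common in the bat region, so these counts are a description.

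A first base U was less frequent in the region than in the lists of bat and horse. A first base U, the most common first base of miRNAs in general, was found in 4 of 24 bat members (16.7%, 4.74 to 37.4) against 47.2% of the bat list (43.7 to 50.9). In the horse it was found in 1 of 8 (12.5%, 0.316 to 52.7) against 59.2% (54.5 to 63.9). In the dog it was found in 1 of 3, against 66.3%. A first base A was found in 11 of 24 bat members (45.8%, 25.5 to 67.2) against 23.5% of the list (20.5 to 26.7), in 4 of 8 horse members (50.0%, 15.7 to 84.3) against 13.4% (10.4 to 17.0), and in 1 of 3 dog members against 7.14%. For A the intervals of members and list overlapped in all 3 species. The bat and horse intervals for U lay below those of their lists, and the dog interval, 0.840 to 90.6, was too wide to compare. These intervals treat candidates as independent, although the 24 bat members came from 17 loci and the 8 horse members from 5. No conclusion is therefore drawn from them.

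Lengths of 20 to 24 bases, usual for miRNAs, were found in 22 of 24 bat members, 8 of 8 horse members and 3 of 3 dog members. In the lists the shares were 78.6% (75.5 to 81.5), 58.8% (54.0 to 63.4) and 57.1% (50.8 to 63.3). The bat interval, 73.0 to 99.0, overlapped that of the list, and the horse interval, 63.06 to 100, overlapped it narrowly. All 5 prediction models called 16 of 24 bat members (66.7%, 44.7 to 84.4), 7 of 8 horse members (87.5%, 47.4 to 99.7) and 2 of 3 dog members (66.7%, 9.43 to 99.2). The lists had 51.6%, 47.2% and 50.0%, and the intervals of members and list overlapped in each species. The median bat member had a hairpin GC content of 48.6%, against 55.5% in the bat list. For the horse this was 45.4% against 57.6%, and for the dog 47.3% against 57.7%. Median folding energies were -48.0, -50.5 and -46.9 kcal/mol, beside -51.1, -50.4 and -49.7 in the lists.

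**Figure D4:**
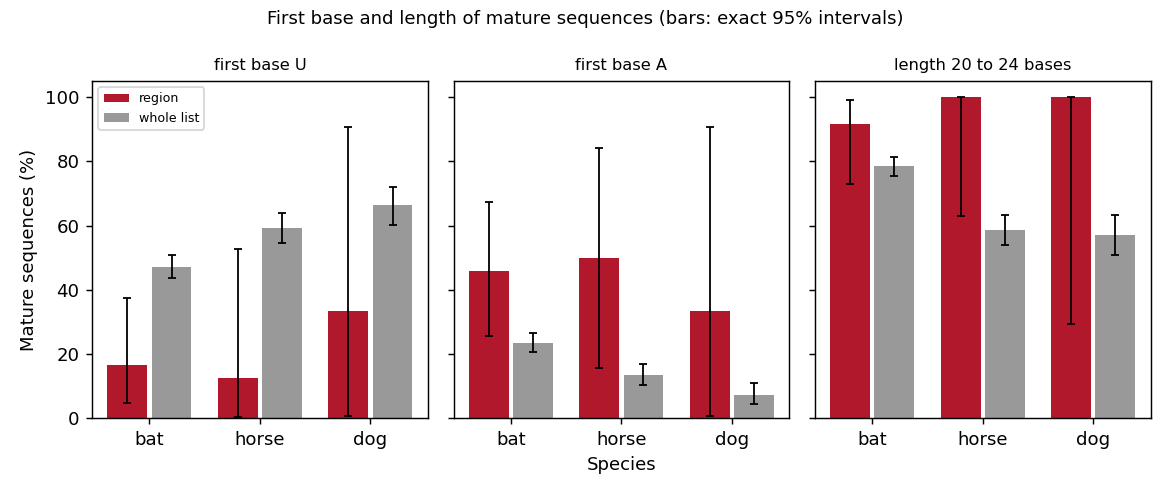
Percent of mature sequences with a first base U, with a first base A and with 20 to 24 bases, for the region (red) and the whole list (grey) in each species; error bars are exact 95% intervals. First base U stands at 16.7% in the bat region against 47.2% in the bat list.

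At the edges of the rule the bat row goes on. The next contigs with candidates, ALEH01112083.1 and ALEH01112084.1, held 4 and 3 candidates on the minus strand. By spacing the first held MIR127 with 682 reads at 36173 to 36305, MIR136 with 16 reads on the 5p arm and 19 on the 3p arm, and MIR370 with 4. MIR127 and MIR136 lie antisense to the imprinted gene RTL1 in mammals, and in the table MIR370, MIR136 and MIR127 are the miRNA genes next to MIR379. The 3 candidates of the other contig had 5 reads in all. With these 7 candidates the bat region would have 1313 reads, or 1.47% of the listed bat reads, and MIR127 would lead it. The nearest horse candidate outside its window lay 561302 bases away and the nearest dog candidate 657032.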

How the data were processed

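Small RNA of adult testis was sequenced as 50 bp single-end reads, per the labels' protocols. The authors listed hairpin candidates with a local installation of miRanalyzer, per their deposited notes. For each candidate they deposited 2 unnormalized counts, of distinct read sequences and of summed reads. They also deposited a score, which says how many of 5 models called the candidate, here 4 or 5. Their deposited fraction divides the reads by all reads analysed, to 3 decimals. It was read at the MIR3958 hairpin of the 3 species and as 0.003 at bat MIR379, and not otherwise used. CanFam3.1 is the build of the dog positions per the submitters' processing notes, which name it for bat and horse as well. The bat and horse builds, the trimming and mapping, and any removal of known miRNAs are therefore not given in the sources used here. Without an annotation of these builds, exons, introns and UTRs are left unstated.

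The members and lists were chosen with earlier results of these data known. Loci are hairpins overlapping on the same strand. Bat loci were named, after the data were examined, by the spacing of miRNA genes in the bat RefSeq table, within 50 bases. Naming by sequence had been planned, but no miRNA sequence table was used. Horse and dog counterparts had a hairpin at least 80% identical to a bat one, or else a mature match, by global alignment (Biopython 1.88). Bases opposite a mature sequence and folding energies came from RNAfold 2.7.2. The text names members matched between species, the 5 most-read per species, every dog member, and hairpins with reads on both arms. The other bat loci were named too, so that the row is complete. Shares carry exact Clopper-Pearson 95% intervals (scipy 1.17.1, Python 3.11.15), and no test was run, as a single library of each species was analysed.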

Additional observations from a re-analysis of the deposited data

How the results depend on the processing

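Of 114 values under other settings, 91 stayed within the interval of the main value or, for counts, within 1.5 times of it. With a minimum of 10 reads there were 11 bat, 4 horse and 1 dog members, and the matches fell to 2 for bat and horse and to 0 for bat and dog and for horse and dog, since dog Candidate_245 had 9 reads. Merged loci numbered 5 in the horse. Without the most-read member bat reads summed to 291, horse reads to 351 and dog reads to 11, which were 0.328%, 0.580% and 0.0174% of the listed reads. With identical mature sequences counted once in each list the shares were 0.749% in the bat and 1.81% in the horse. With no mismatch allowed, bat and horse shared 2 sequences, as the pairs of bat MIR494 5p and of MIR154 3p each differed at 1 of 18 bases. With hairpins aligned by blastn 2.17.0 (word size 7, E-value 0.001), 2 bat members and 2 horse members had a match in the dog. The 2 bat members were the hairpins of MIR3958 and MIR1185. The 2 horse members, Candidate_138 and Candidate_139, were the arms of 1 hairpin, the MIR3958 counterpart. With identical sequences counted once the members' reads stayed at 587 and 894, so the shares rose because the list totals fell. The other values moved because members were left out, merged or added, apart from the matches without mismatches and those by blastn, described above. The horse share on the plus strand rose from 87.5% to 100% with at least 10 reads, with all 5 models, or without Candidate_144. The bat region with contigs ALEH01112083 and ALEH01112084 had 1313 reads, or 1.47% of the listed reads. The last of these settings, the one without Candidate_144 and a tolerance of 10 bases for naming loci, which placed 14 of 17 and lost MIR3958, MIR409 and MIR412, were chosen after seeing the data. The planned matching of members to named miRNAs by sequence was not run, since no miRNA sequence table was used. No paired analysis was possible because 1 library of each species was analysed. Low counts limit the lower members: 11 of 24 bat members (45.8%) had at least 10 reads, against 33.5% of the bat list.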
